A study of Mus musculus with 2 samples.

Results

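Mir7-1, Mir7-2, Mir7b, Mir671 and Mir375 are 5 of the 2202 miRNA genes counted by small RNA sequencing of tissue labelled as layer of hippocampus in old male mice; the labels do not say which layer. They were taken by gene symbol: the 3 genes of the mir-7 family, the gene of miR-671, which acts on the same circular RNA as miR-7, and the endocrine gene Mir375. There was 1 group of 2 libraries, replicate 1 and replicate 2, both from total RNA of males of the F1 hybrid strain B6CASTF1/J aged 18 to 20 months. No treatment, genotype or age was compared, so the data give levels and the difference between libraries. The labels give each library a tissue entry of its own and a shared donor entry, and whether the animals differed is not said, so the spread between libraries may be technical.

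MicroRNAs are short RNAs cut from a hairpin that lower the stability or translation of the RNAs they pair with, mainly through the seed near their 5′ end. In mouse brain, miR-7 binds many sites on Cdr1as, a neuronal circular RNA, while miR-671 pairs with it almost along its whole length and directs its cleavage. The long non-coding RNA Cyrano carries an extended miR-7 site that triggers decay of miR-7. Mir375 is best known from pancreatic islets and the pituitary, tissues in which miR-7 is abundant too.

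The mature sequences of the RefSeq table on GRCm38.p6 show which products of these genes can be told apart. For Mir375 the 5p arm alone is printed, and the seed of its 3p arm was not compared. The role of Mir375 in islet cells is not tied here to the printed arm. Capitals mark the seed, bases 2 to 8 from the 5′ end.
miR-7a-5p (of Mir7-1 and Mir7-2): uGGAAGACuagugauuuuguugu
miR-7b-5p (of Mir7b): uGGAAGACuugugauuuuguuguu
miR-7a-1-3p (of Mir7-1): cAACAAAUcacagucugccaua
miR-7a-2-3p (of Mir7-2): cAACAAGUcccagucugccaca
miR-7b-3p (of Mir7b): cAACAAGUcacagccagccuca
miR-671-5p (of Mir671): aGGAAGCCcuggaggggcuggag
miR-671-3p (of Mir671): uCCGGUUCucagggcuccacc
miR-375-5p (of Mir375): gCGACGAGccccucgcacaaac

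The 5p sequences of the mir-7 genes share the seed GGAAGAC, and no other gene among the 1679 mature names of the RefSeq table has it. Over 23 compared bases miR-7b-5p differs from miR-7a-5p by A10U alone, outside the seed. On the 3p arm, miR-7a-2-3p and miR-7b-3p share the seed AACAAGU, while miR-7a-1-3p differs from miR-7a-2-3p by G7A within the seed and by C10A and C21U outside it. The seed of miR-671-5p differs from that of miR-7a-5p at 1 base, C7A counted from the 5′ end of miR-671-5p, although only 30.4% of the 23 compared bases are identical. The seeds of miR-671-5p, miR-671-3p and miR-375-5p were each found in 1 mature name.

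Mir7-1 and Mir7-2 encode the same miR-7a-5p, which decides what their counts can hold. The 3 hairpins are shown for that reason, with the 24 nt that Mir7-1 and Mir7-2 have in common in capitals.
Mir7-1: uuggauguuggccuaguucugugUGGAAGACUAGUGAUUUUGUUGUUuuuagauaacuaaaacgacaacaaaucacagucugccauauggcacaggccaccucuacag
Mir7-2: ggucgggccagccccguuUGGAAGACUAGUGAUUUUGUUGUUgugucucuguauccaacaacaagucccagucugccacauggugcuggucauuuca
Mir7b: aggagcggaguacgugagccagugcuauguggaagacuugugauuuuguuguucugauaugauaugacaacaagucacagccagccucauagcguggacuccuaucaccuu

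All 23 bases of miR-7a-5p lie inside the shared stretch. A read that fits several places enters no gene in these tables, so reads of miR-7a-5p that end within the stretch are not in the counts of Mir7-1 or Mir7-2. Mir7b shares at most 14 nt with either of them, and none of its 90 windows of 22 nt occurs in another annotated hairpin. For Mir7-1, 3 of 87 such windows recur in another hairpin, and for Mir7-2, 3 of 76. Mir671 and Mir375 share at most 13 and 10 nt with any other hairpin. The search covered the 2202 annotated hairpins on both strands and not the whole genome.

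**Figure D1:**
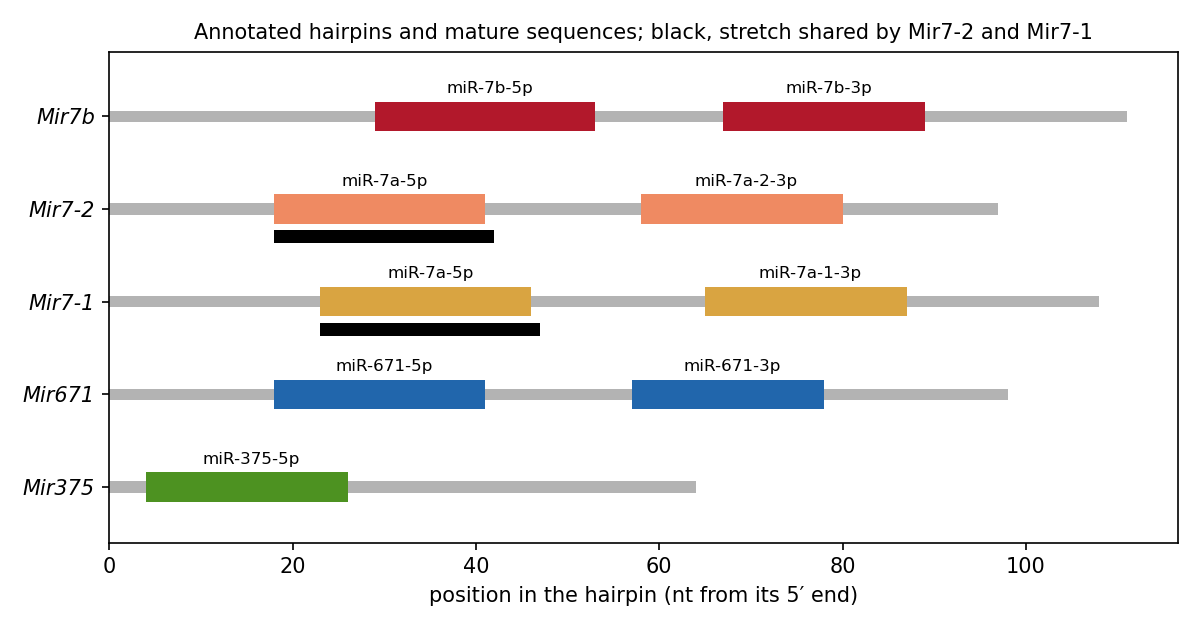
Hairpins of the 5 genes drawn to scale, with position in nt from the 5′ end on the horizontal axis. Coloured bars are the mature sequences listed in RefSeq, and the black bars under Mir7-2 and Mir7-1 mark their shared 24 nt, which cover the whole of miR-7a-5p in both.

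The 5 genes lie apart in the genome, on mm10 with GENCODE M21. Mir7-1 (ENSMUSG00000065434.1, chr13:58392779-58392886, minus strand) lies on the strand of Hnrnpk, which encodes an RNA-binding protein, and is intronic in the 12 Hnrnpk transcripts that span it. Mir7-2 (ENSMUSG00000065609.1, chr7:78888277-78888373, plus strand) overlaps no annotated gene, with Aen 7481 bp away. Mir7b (ENSMUSG00000065491.1, chr17:56242988-56243098, plus strand) overlaps none either and lies 183 bp from the long non-coding gene AC026385.1 on the same strand. Mir671 (ENSMUSG00000076387.1, chr5:24592114-24592211, plus strand) overlaps a coding exon of Chpf2, an enzyme gene of chondroitin synthesis, in 2 of its transcripts. On the opposite strand it overlaps an exon of Smarcd3. Mir375 (ENSMUSG00000065616.3, chr1:74900658-74900721, minus strand) overlaps no annotated gene and lies 1350 bp from Cfap65. No other miRNA gene was annotated within 10 kb of any of them, the nearest being Gm44397 at 70863 bp from Mir7b.

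All 5 genes were detected in both libraries, with Mir7b the highest and Mir7-1 the lowest. Levels are given as counts per 1000000 sense-strand counts over all miRNA genes (CPM) with the standard deviation over n = 2 libraries. They are not divided by length, because a read of this size class, labelled under 30, spans about a mature RNA. Replicate 1 held 3758318 such counts and replicate 2 held 5598792, and 384 genes had 10 or more counts in both and are called detected. In bulk tissue, fewer cells of a type and less RNA per cell cannot be told apart.

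Mir7b, the gene of miR-7b, had 10070 counts in replicate 1 and 20211 in replicate 2, which is 2679 and 3609.9 CPM. Its mean was 3145 ± 658 CPM, the 49th level of all miRNA genes. The 95% Wilson intervals, which cover counting error only, ran from 2628 to 2732 CPM in replicate 1 and from 3561 to 3659.9 CPM in replicate 2, so the libraries differed by more than counting error.

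Mir7-2 had 408 and 1442 counts in replicates 1 and 2, or 109 and 258 CPM, with a mean of 183 ± 105 CPM. Mir7-1 had 353 and 887 counts, or 93.9 and 158 CPM, with a mean of 126 ± 45.6 CPM. Their ranges overlap, since Mir7-2 in replicate 1 lay below Mir7-1 in replicate 2, and their means differed by less than the SD of Mir7-2. Within each library Mir7-2 was the higher: it held 53.6% of the 761 counts of the pair in replicate 1 (Wilson interval 50.1 to 57.1%) and 61.9% of the 2329 counts in replicate 2 (59.9 to 63.9%).

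Mir7b held most of the counted mir-7 reads, with 93.0% of 10831 in replicate 1 (Wilson interval 92.5 to 93.4%) and 89.7% of 22540 in replicate 2 (89.3 to 90.1%). Its mean share was 91.3% ± 2.34, beside 5.08% ± 1.86 for Mir7-2 and 3.60% ± 0.478 for Mir7-1. The Wilson intervals of Mir7b do not overlap between the libraries. As reads within the stretch common to Mir7-1 and Mir7-2 are not counted, these are shares of countable reads, and they do not give the proportion of miR-7b to miR-7a in the tissue. Reads that mapped to several places made up 51.5% of all reads in replicate 1 and 46.7% in replicate 2, and how many of them were miR-7a-5p is not recorded in the tables.

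Mir671, whose product directs cleavage of Cdr1as, had 4849 counts in replicate 1 and 11105 in replicate 2. That is 1290.2 and 1983 CPM, a mean of 1637 ± 490.2 CPM and the 69th level. Mir7b had 2.08 times as many counts as Mir671 in replicate 1 and 1.82 times in replicate 2, and their CPM ranges do not overlap. No read was counted on the opposite strand of Mir671 in either library, where Smarcd3 is annotated. Because the hairpin overlaps a Chpf2 exon, its sense counts do not tell mature miR-671 from short fragments of the Chpf2 transcript.

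Mir375, an endocrine microRNA known for restraining insulin release in islet cells, had 1032 counts in replicate 1 and 1685 in replicate 2. At 275 and 301 CPM it was the steadiest of the 5 genes in CPM, with a mean of 288 ± 18.6 CPM, or a coefficient of variation of 6.48% against 20.9 to 57.6% for the others. The Wilson intervals, 258 to 292 and 287 to 316 CPM, overlap. It was the 143rd gene by level, above Mir7-2 by a margin smaller than the SD of Mir7-2. Its levels lay far above those that a count of 0 allows, 0.798 CPM (replicate 1) and 0.536 CPM (replicate 2).

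The order Mir7b, Mir671, Mir375, Mir7-2, Mir7-1 was the same in both libraries. Together the 5 genes held 0.445% of counted reads in replicate 1 and 0.631% in replicate 2, while Mirlet7g, the most abundant gene, held 156275 ± 19619 CPM. The median detected gene had 102 CPM, so Mir7b stood 30.9-fold, Mir671 16.1-fold, Mir375 2.82-fold, Mir7-2 1.80-fold and Mir7-1 1.24-fold above it. Small RNA ligation is known to favour some sequences over others, so a difference in CPM between genes is a difference in reads and not in molecules. Reads of miR-7a-5p within the stretch shared by Mir7-1 and Mir7-2 are not counted, so the low places of these genes are places by countable reads.

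**Figure D2:**
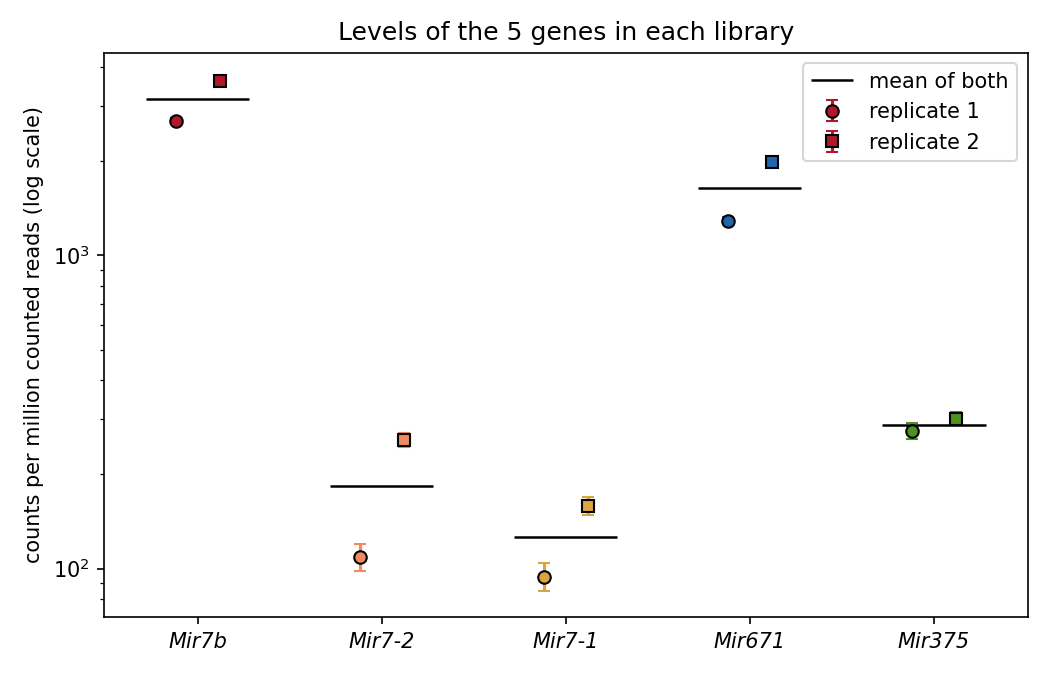
Level of each gene in CPM on a log axis, with replicate 1 as circles, replicate 2 as squares, 95% Wilson intervals as error bars and the mean of both as a line. In CPM replicate 2 is above replicate 1 for each of the 5 genes, and Mir375, which has the smallest gap, is higher in replicate 1 with TMM scaling.

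**Figure D3:**
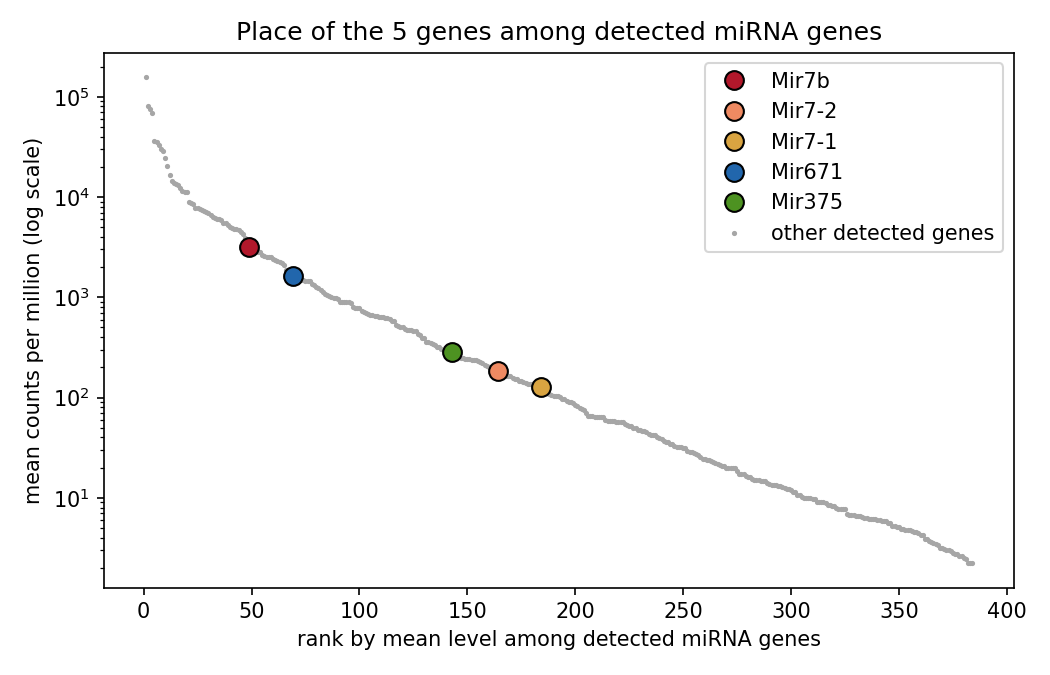
Mean level of the 384 detected miRNA genes on a log axis against their rank, with the 5 genes coloured. Mir7b stands at rank 49 and Mir671 at rank 69, while Mir375, Mir7-2 and Mir7-1 lie near the middle of the curve at ranks 143, 164 and 184.

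Genes of nearly the same level were found from the distance between log2(CPM + 1) values over the 2 libraries, which measures likeness of level only. Nearest to Mir7b were Mir369 of the imprinted cluster on chromosome 12 (3036 ± 475.1 CPM) and Mir219a-2, known from myelinating cells (2911 ± 136 CPM). Mir671 was nearest to Mir181c (1699 ± 448 CPM) and Mir485 (1584 ± 227 CPM), and Mir375 to Mir3099 (294 ± 12.1 CPM) and Mir467d (305 ± 57.3 CPM). Mir7-2 was nearest to Mir877 (157 ± 73.1 CPM) and Mir664 (168 ± 61.4 CPM), and Mir7-1 to Mir3068 (121 ± 42.9 CPM) and Mir27a (140.1 ± 41.6 CPM).

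In the comparison of the libraries, Mir7-1, Mir7-2, Mir7b and Mir671 were higher in replicate 2 and Mir375 was higher in replicate 1 once the libraries were scaled by TMM, which sets the bulk of genes level; with total counts Mir375 was higher in replicate 2. Mir7-2 was 1.91-fold higher in replicate 2, Mir7-1 1.35-fold, Mir671 1.23-fold and Mir7b 1.08-fold, and Mir375 was 1.14-fold higher in replicate 1. All 5 passed the exact two-sided binomial test at an adjusted p of 0.05 (Benjamini-Hochberg over 384 genes), but so did 65.1% of all detected genes. Those higher in replicate 2 made up 31% of detected genes and those higher in replicate 1 34.1%. The test sets these libraries against each other on counting error alone and does not compare conditions.

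With TMM scaling Mir7-2 differed by more than the median detected gene did and the other 4 genes by less, while with DESeq2 scaling Mir7-1, and with total counts Mir7-1 and Mir671, also exceeded the median. The TMM median was 1.36-fold in either direction. The edgeR common dispersion gave a coefficient of variation of 34.4% between the libraries, which edgeR names biological although this spread may be technical. Mir7-2 differed by 0.93 on the log2 scale (adjusted p = 3.36e-33, exact binomial test), and 67 of 384 genes differed by more. Mir7-1 differed by 0.44 (adjusted p = 2.33e-06, exact binomial test), with 195 genes differing by more. Mir671 differed by 0.30, Mir7b by 0.11 and Mir375 by -0.18, and 254, 328 and 304 genes differed by more than each of them. Mir7b had the deepest counts of the 5 and, with TMM or DESeq2 scaling, the smallest difference, which with total counts was that of Mir375.

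The direction for Mir375 depended on the scaling. By total counts its log2 ratio of replicate 2 over replicate 1 was 0.13 (adjusted p = 0.0308, exact binomial test), against -0.18 with TMM (adjusted p = 0.00231, exact binomial test). Total counts put the median log2 ratio of all detected genes at 0.31, against -0.01 with TMM, and called 70.6% of genes. Calls with more in replicate 2 then made up 50.8% of detected genes and calls with more in replicate 1 19.8%. Mir375 lay below that median under each of these scalings, and the other 4 genes lay above it. Relative to the TMM median, the log2 difference was 0.94 for Mir7-2, 0.44 for Mir7-1, 0.31 for Mir671, 0.12 for Mir7b and -0.18 for Mir375.

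**Figure D4:**
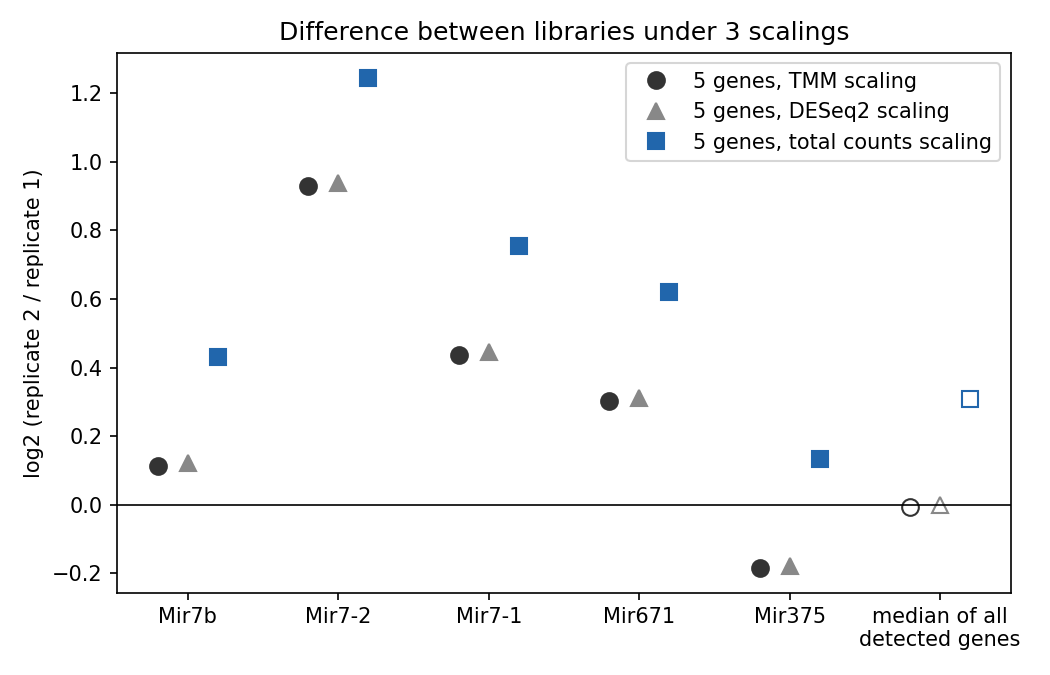
Log2 ratio of replicate 2 over replicate 1 for the 5 genes (filled symbols) and the median of all detected genes (open symbols) under TMM, DESeq2 and total-count scaling. Mir375 is below 0 with TMM and DESeq2 and above 0 with total counts, where the median gene moves up to 0.31.

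Other microRNAs known from islets and the pituitary were read as well, most at lower levels than Mir375. Of the 16 genes on that list, which holds Mir375 and the mir-7 genes, 15 were detected, and the list's median gene had 67.4 CPM against 102 CPM for all detected genes. The highest were Mir335 (4951 ± 543 CPM), Mir7b and Mir153, a neuronal microRNA that targets secretory vesicle proteins (671.3 ± 458 CPM). Genes of the mir-200 and mir-183 clusters were lower, with 70.8 ± 28.2 CPM for Mir182, 64.0 ± 9.56 CPM for Mir183, 60.0 ± 12.6 CPM for Mir429 and 53.7 ± 24.8 CPM for Mir200c, and Mir96 had 2 and 31 counts in replicates 1 and 2. With TMM scaling the binomial test called 10 of the 15 detected genes, a share near the 65.1% called over all detected genes. By direction, 8 had more in replicate 2, the 3 mir-7 genes among them, and 2 had more in replicate 1. Over all detected genes, 31% were called with more in replicate 2 and 34.1% with more in replicate 1.

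Markers of other sources were read beside these levels. The 3 genes of exocrine pancreas were not detected, with Mir217 at 8 and 3 counts, Mir216a at 2 and 4 and Mir216b at 1 and 0, and their sums were 2.93 and 1.25 CPM. Of 18 genes known from neurons 14 were detected. The 18 genes summed to 52549 and 55959 CPM in replicates 1 and 2, led by the activity-induced Mir132 (16652 ± 1642 CPM), Mir128-1 (13308.5 ± 1589 CPM) and Mir137 (12226 ± 884 CPM). The list also holds numbered copies of Mir9, Mir128, Mir129, Mir138 and Mir218, and the sum covers countable reads only. Mir153 and Mir212 are on the islet and pituitary list too. Of the defining neuronal genes, the copies of Mir124a had 2, 0 and 0 counts in replicate 1 and 5, 2 and 0 in replicate 2; these are gene copies, reads that fit several places are not counted, and the counts do not show how much miR-124 the tissue held. With TMM scaling the 14 detected neuronal genes were all called, 7 with more in each library, beside 65.1% called over all detected genes. The 11 glial genes, 10 of them detected, summed to 34011 and 37201 CPM, led by Mir29a (20409 ± 1269.9 CPM), Mir338 (4986 ± 2692 CPM) and Mir219a-2. With the same scaling 6 of the glial genes were called with more in replicate 1 and 3 with more in replicate 2. Over all detected genes, 34.1% were called with more in replicate 1 and 31% with more in replicate 2.

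Every list but that of exocrine pancreas had a higher summed CPM in replicate 2, the scale on which the median detected gene was higher there too. The choroid plexus and ependyma list had 7 of its 11 matched genes detected and summed to 2122 and 3174 CPM in replicates 1 and 2, led by Mir34c (1328 ± 231 CPM), Mir204 (898 ± 197 CPM) and Mir1298 (255 ± 246 CPM). The binomial test with TMM scaling called 5 of the 7, each with more in replicate 2, beside 31% of all detected genes called in that direction. The hepatocyte gene Mir122 had 23.9 and 47.5 CPM, and the red cell genes Mir451a and Mir144 summed to 52.4 and 77.0 CPM. The part of these other cells in the levels of the 5 genes was not tested.

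The annotated RNAs of the Cdr1as network are longer than the size range of these libraries and have no level here, but their sequence shows what the counted microRNAs can pair with. On the strand opposite Cdr1, the exon of the long non-coding gene C230004F18Rik at chrX:61183248-61186174 (mm10, plus strand, 2927 nt) holds 123 copies of GTCTTCC, the complement of the miR-7 seed. RefSeq lists Cdr1as as a synonym of this gene. That is 42.0 matches per kb, with a median spacing of 18 nt between starts, and the reverse strand holds 0. Among the first 2927 bases of 25516 GENCODE M21 transcripts of other genes that are at least as long, 23.9% hold the motif and the highest count was 4. Of the 123 matches, 34 are followed by A.

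The complement of the miR-671-5p seed, GGCTTCC, occurs once in the same exon, and 29.3% of the windows of that length from other genes hold it. The site is given here with the miR-7 site of the exon that, without a gap, matches most bases of miR-7a-5p. It is followed by the long miR-7 site of 1700020I14Rik, which RefSeq lists as a synonym of Cyrano's gene Oip5os1. The sites are written in DNA letters of the plus strand, with the match to the seed in capitals.
miR-671-5p site in C230004F18Rik, chrX:61186029-61186051: ttccagcatctccagGGCTTCCa
miR-7 site in C230004F18Rik, chrX:61183571-61183593: tccagaaaaatccaaGTCTTCCa
miR-7 site in 1700020I14Rik, chr2:119602137-119602161: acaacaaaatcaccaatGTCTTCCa

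Of the 23 bases of miR-671-5p, 19 form Watson-Crick pairs with its site without a gap and 2 form G to U pairs. The site begins at base 2782 of the exon, with 120 miR-7 seed matches wholly before it, 1 that overlaps its first bases and 2 after it. Scored without a gap, the best miR-7 site of the exon matches 16 of the 23 bases of miR-7a-5p and the median site 13. Pairing of these sites with a gap was not scored, so the counts may miss some pairing outside the seed. The 1700020I14Rik transcript of 8300 nt holds 2 miR-7 seed matches. The site given was picked for the longest match to the 3′ end of miR-7a-5p, with a gap allowed. That site matches bases 1 to 8 of miR-7a-5p and its last 13 bases, with 4 bases between these parts against 2 in miR-7a-5p. As the exon sites were scored without a gap, these values and those of the exon are unlike measures. The miR-7 sites were scored against miR-7a-5p, whose reads within the stretch shared by Mir7-1 and Mir7-2 are not counted. For miR-7b-5p, which has the same seed, pairing outside the seed was not scored. All these matches are a description of sequence, and no binding was measured.

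**Figure D5:**
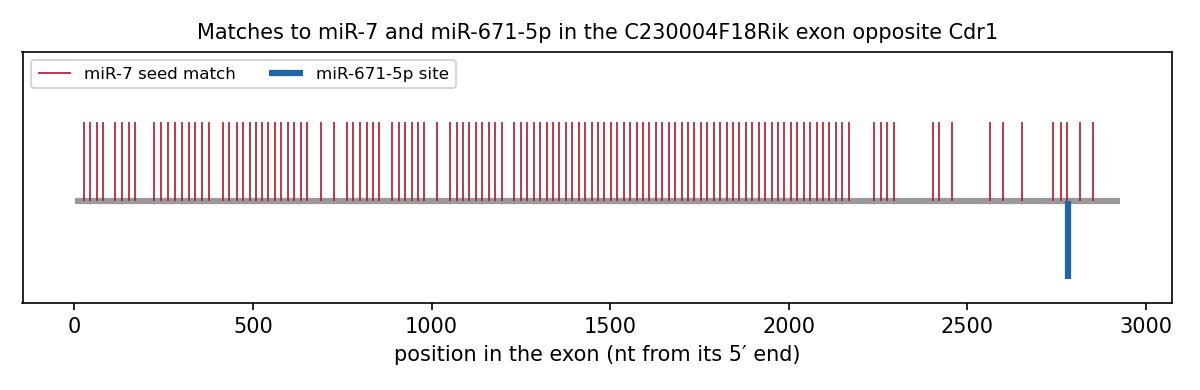
Map of the C230004F18Rik exon opposite Cdr1, with position in nt from its 5′ end on the horizontal axis. Upward lines mark the 123 matches to the miR-7 seed and the downward line the miR-671-5p site at base 2782, near the 3′ end where the miR-7 matches are sparser.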

How the data were processed

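The authors deposited, for each library, a table of raw read counts per miRNA gene, unnormalized, on the mm10 assembly (per the labels) with GENCODE annotation M21 (per the deposited text files). The aligner and the counting tool were not given in the sources used here. The sense column was taken as the stranded column with the larger total, 3758318 and 5598792 counts against 287729 and 425273 on the other strand. In replicates 1 and 2, summary lines for unmapped (9.53% and 14.4% of reads), multiply mapped (51.5% and 46.7%) and unannotated reads (3.47% and 4.24%) stayed out of library sizes and tests.

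CPM, Wilson intervals, and exact binomial tests on TMM-scaled library sizes, adjusted by Benjamini-Hochberg over the 384 genes with 10 or more counts in both libraries were computed with edgeR 4.0.16, DESeq2 1.42.0 (size factors only), R 4.3.3, scipy 1.17.1 and Python 3.11.15. The test was checked on data simulated with counting error alone and known library sizes. That check does not cover the further spread between these libraries or their scaling. The labels number the libraries as biological replicates, so n was 2, but whether the animals differed is not said. A floor is 3 counts. As PCR copies were not marked by molecular identifiers, intervals and floors cover counting error only.

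The members and gene lists were chosen with earlier results of these data known. Named are the 5 members, the 3 highest genes of each list, the 2 genes nearest each member in level, hairpins sharing 20 nt or more with a member, miRNA genes within 10 kb and the most abundant gene; other genes were named after their values were seen. One listed symbol, Mir1911, matched no gene. RefSeq sequences (GRCm38.p6) matched all 5 members.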

Additional observations from a re-analysis of the deposited data

How the results depend on the processing

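No paired analysis was possible because there was 1 group. Of the alternatives to scaling, filter, test and count column, none changed how many of the 5 genes were called, and the total number called stayed within 1.5 times 250. The log2 ratio of Mir375 turned to 0.13 with total counts; the shift of the median gene under that scaling is 0.31. Per 1000000 counts without the 10 most abundant genes, the levels were 7274 (Mir7b), 3781 (Mir671), 667 (Mir375), 421 (Mir7-2) and 291 (Mir7-1). Per 1000000 of all reads, they were 1102, 573, 101, 63.95 and 44.2 in the same order. These follow from the denominators, and the order of the genes is the same. With the unstranded column, whose library total is smaller, all 5 levels were higher. They were 3404 (Mir7b), 1772 (Mir671), 311.5 (Mir375), 198 (Mir7-2) and 137 CPM (Mir7-1). The rise exceeded the SD over the libraries for Mir375 alone, which had the smallest SD. Leaving out either replicate gives the level of the other and leaves no test between libraries. Depth limits Mir7-1 and Mir7-2 most, and reads of miR-7a-5p that fit both genes are missing from either.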

Other observations

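Other genes named for neurons also differed between the libraries in CPM, in both directions; they were chosen after their values were seen. In replicates 1 and 2, Mir153 had 347 and 995 CPM, Mir129-2 had 509 and 1409 CPM and Mir212 had 221 and 488 CPM, each higher in replicate 2 as Mir7-2 was. Mir132, which shares a cluster with Mir212, had 17812.5 and 15491 CPM, and Mir137 had 12852 and 11601 CPM. Mir7-2 had 3 counts on its opposite strand in replicate 2 and 0 in replicate 1, at the floor of 3 counts, and the other 4 genes had 0 in both libraries.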
